A study of Mus musculus with 2 samples.

Results

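Cadherins and protocadherins are the adhesion molecules followed here across the cell types of the mouse brainstem. They were taken as every gene whose symbol is Cdh or Pcdh, with or without further letters, followed by a number, and that had at least 20 unique molecular identifiers (UMIs, each counting 1 captured RNA molecule) over all nuclei. Of 96 genes with such a symbol, 93 passed this minimum, out of 25556 genes in the data. *Cdh26* with 22 UMIs and *Cdh17* with 25 UMIs lay just inside it, and *Pcdh12* with 13 UMIs, *Cdhr5* with 8 UMIs and *Pcdhb1* with 7 UMIs were left out. The 93 genes held 1782519 UMIs, 1.31% of the total.

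Classical cadherins are calcium-dependent proteins that bind the same or a related cadherin on the neighboring cell and reach the actin cytoskeleton through catenins. Protocadherins bind more weakly. The clustered alpha, beta and gamma protocadherins are made from variable exons that each have a promoter, and give single neurons different surface identities, whereas the non-clustered delta protocadherins are often restricted to particular nuclei and pathways of the brain. A few members serve special junctions, such as the endothelial junction or the tip links of inner ear hair cells.

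The nuclei came from the brainstem of 1 WT mouse and 1 HET mouse (*Scn1a* A1783V/WT, a model of Dravet Syndrome), with 1 library each. HET mice were bred from a male carrying floxed *Scn1a* and a Sox2-Cre female, whose Cre acts in the embryo, and the WT mouse was obtained from littermates. Both mice were female, untreated, on a C57Bl6 background and 41 days old. The comparison asked how the brainstem transcriptome differs at baseline in a HET mouse that survived the period of high mortality. With 1 library per genotype there was no replicate check and no test, and genotype cannot be told apart from animal, dissection or library. The counts do not read the altered amino acid, so *Scn1a* was not used to check the labels.

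The WT library held 9259 nuclei and 70301390 UMIs and the HET library 9022 nuclei and 66176778 UMIs, with medians of 5456 and 5646 UMIs per nucleus. The libraries shared 23 cell barcodes. The authors sorted the nuclei into 16 named clusters, 9 of them neuronal, and 34 finer numbered subclusters. In 5 clusters (epend.2, neuron.5, neuron.6, neuron.8 and neuron.9) and 10 subclusters, over 80% of nuclei came from 1 library. Markers went with most cluster names, but subcluster 32 of epend.1 was led by markers of oligodendrocyte precursors (*Pdgfra* 791 CPM, *Vcan* 1049 CPM) and subcluster 18 of micro by neuronal markers (*Syt1* 886 CPM against *Csf1r* 1.97 CPM). Subcluster 25, which makes up epend.2, was led by the choroid plexus gene *Ttr*. CPM are the UMIs of a gene per 1000000 summed UMIs of the nuclei named.

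Levels were compared for 1 gene across clusters, never between genes. The highest cluster of 27 of the 93 genes stood apart, meaning that the lower bound of its 95% exact Poisson interval was above the upper bound of the cluster with the next highest CPM, among the 15 with at least 50 nuclei; over all genes with at least 20 UMIs this share was 24.6%. These intervals, and those of ratios below, cover counting error only. The 27 genes had their highest level in 12 different clusters, 12 genes in neuronal and 15 in non-neuronal ones, and 22 had the same highest cluster in each library. The 27 were picked on both libraries together, which favors such agreement, and this share was not counted over all genes. A narrower count, with at least 100 UMIs in the highest cluster and at least 2 times the CPM of the next, held 9 genes (*Pcdh9*, *Cdh8*, *Cdh6*, *Cdh19*, *Cdhr1*, *Cdh23*, *Cdhr3*, *Cdh5* and *Cdhr4*) in 6 clusters, against 8.37% of all genes. In the HET library alone 3 genes met it (*Pcdh9*, *Cdh19* and *Cdh23*). There *Cdhr3*, *Cdhr4*, *Cdh5* and *Cdhr1* had 63, 45, 58 and 40 UMIs in their highest cluster, below the minimum of 100. *Cdh8* was at 854 CPM in neuron.2 against 519 CPM in neuron.6, the latter from 18 UMIs in 5 nuclei. *Cdh5* and *Cdh6* were below 2 times the next cluster. Without subclusters 18, 21 and 32 the narrower count held 8 genes, *Pcdh9* being lost. For both counts the clusters had been made with these same genes, so the levels describe the clusters and test nothing. The CPM over the neuronal clusters together was higher than over the others for 61 of 93 genes, against 50.4% of all genes.

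**Figure D1:**
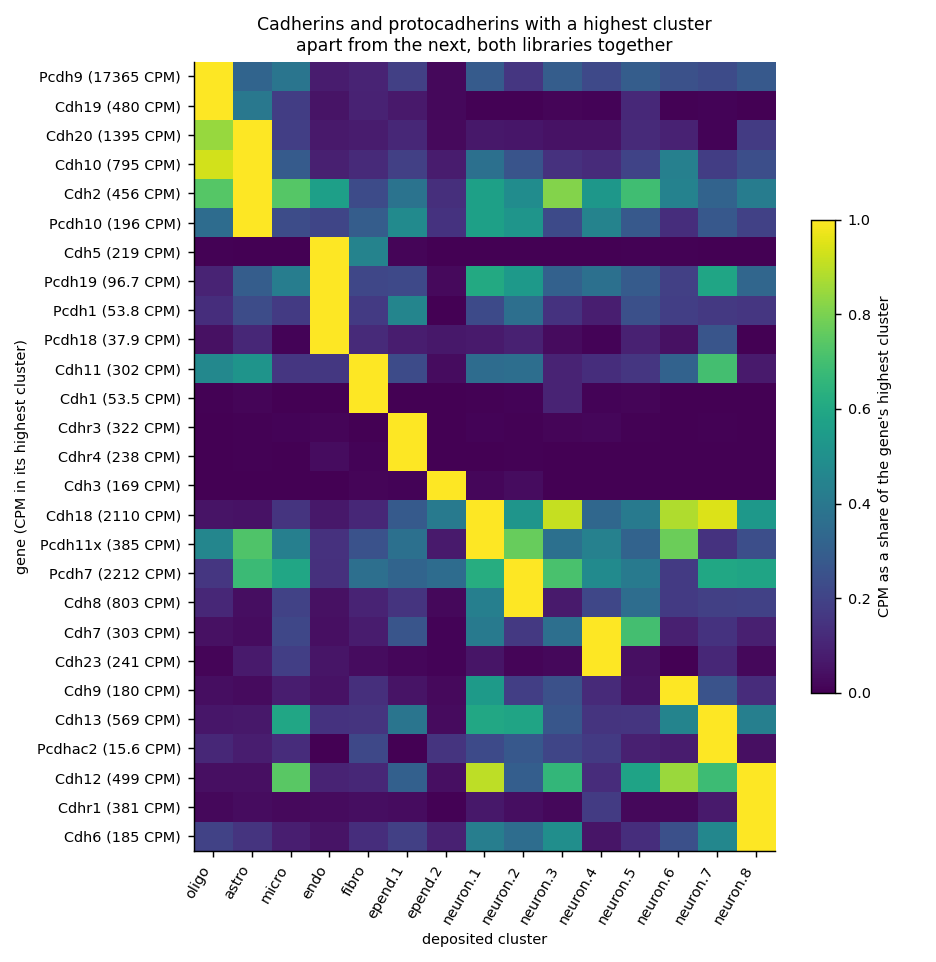
Heat map of the 27 genes whose highest cluster stood apart from the next (rows, with the CPM in that cluster) over 15 deposited clusters (columns), both libraries together. Color gives the CPM as a share of the gene's highest cluster, from 0 to 1, and the highest squares fall in 12 different clusters, with *Cdhr3*, *Cdhr4*, *Cdh3* and *Cdh5* near 0 in most others.

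The ependyma held the sharpest pair. *Cdhr3* and *Cdhr4* are cadherin-related genes, of which *CDHR3* is known in ciliated airway cells as the receptor of a rhinovirus. *Cdhr3* stood at 322.0 CPM in epend.1 (346 CPM in WT, 277 CPM in HET) and at 5.72 CPM in the next cluster, neuron.4. *Cdhr4* stood at 238 CPM in epend.1 (259 CPM in WT, 198 CPM in HET) and at 7.98 CPM in the next, endo. Within epend.1 both were highest in subcluster 23, which carried the ciliary dynein gene *Dnah12* at 2703 CPM. Both genes thus had their highest level in the same ependymal cluster in each library.

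Because these genes marked the ciliated ependyma, their promoters are shown, from 250 bases before to 50 bases after the start of transcription, as given by RefSeq on build GRCm38.p6. The *Cdhr3* window is chr12:33092826-33093125 on the minus strand and the *Cdhr4* window chr9:107992207-107992506 on the plus strand, each printed 5′ to 3′ along its gene. Capitals mark GGCAAC, which is GTTGCC on the other strand, a half-site of the X-box that RFX factors of ciliated cells recognize.
Cdhr3: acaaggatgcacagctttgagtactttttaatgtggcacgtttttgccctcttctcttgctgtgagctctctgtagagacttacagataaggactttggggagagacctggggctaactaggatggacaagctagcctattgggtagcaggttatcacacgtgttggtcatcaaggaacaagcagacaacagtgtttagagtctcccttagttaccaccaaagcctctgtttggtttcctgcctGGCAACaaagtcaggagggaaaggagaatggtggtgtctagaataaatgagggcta
Cdhr4: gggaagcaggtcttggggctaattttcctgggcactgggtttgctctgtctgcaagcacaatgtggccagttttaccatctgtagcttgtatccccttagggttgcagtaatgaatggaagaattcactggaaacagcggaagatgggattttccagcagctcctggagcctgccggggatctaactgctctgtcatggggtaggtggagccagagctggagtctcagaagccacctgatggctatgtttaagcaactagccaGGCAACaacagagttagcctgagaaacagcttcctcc
The match began at −6 in *Cdhr3* and at 13 in *Cdhr4*, counted from the start of transcription. Of the 93 genes, 26 had a promoter window, and these 2 were the only ones of the 26 to hold GTTGCC on either strand (7.69%), against 14.1% of 27025 genes. The forkhead motif TGTTTAC, also searched on both strands, was in 0 of the 26 windows and in 4.05% of genes. A match of 6 letters is a description and says nothing of binding.

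Among the type I cadherins, *Cdh2* (N-cadherin, the main neural classical cadherin) was broad. It reached 456 CPM [437, 476] in astro and 373 CPM in neuron.3, and was 388 CPM in WT and 512 CPM in HET astro nuclei. *Cdh4* (R-cadherin) was at 148 CPM in neuron.1 and 144 CPM in neuron.3, which did not differ beyond their intervals. In contrast, *Cdh3* (P-cadherin, of epithelia) was at 169 CPM in epend.2 and 5.56 CPM in the next cluster, all 71 of its epend.2 UMIs being from WT, where 108 of the 114 nuclei of that cluster lay. A second site of *Cdh3* was subcluster 24 of neuron.1, which had the inhibitory markers *Gad2* at 137 CPM and *Slc6a5* at 163 CPM. There *Cdh3* was at 128 CPM in WT and 92.2 CPM in HET. *Cdh1* (E-cadherin) rested on 47 UMIs in fibro, at 37.0 (WT) and 71.6 CPM (HET), and *Cdh15* (M-cadherin, known from muscle and cerebellar granule cells) on 12 UMIs at 8.37 CPM in neuron.5, the cluster with the granule cell marker *Gabra6* at 376 CPM. *Cdh2* and *Cdh4* were thus spread over many clusters, and *Cdh3* and *Cdh1* had their highest level in 1 non-neuronal cluster each, although the large cluster neuron.1 held most *Cdh3* UMIs (198 from WT and 86 from HET, of 404).

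The 13 type II cadherins, which sort neurons and glia by selective binding, gave 11 of the 27 genes that stood apart. Standing apart depends on the number of UMIs. These genes held 447588, against 2960, 9354 and 7101 for the alpha, beta and gamma protocadherins. A share over genes of like UMI count was not taken. *Cdh18*, *Cdh12* and *Cdh9* had their highest levels in neuronal clusters, although *Cdh18* was also at 865.5 CPM in epend.2 (364 UMIs) and 595 CPM in epend.1. *Cdh18* was at 2110 CPM in neuron.1 and 1998 CPM in neuron.7, and its highest cluster was neuron.7 in WT and neuron.1 in HET. *Cdh12* was at 499 CPM in neuron.8 and 450.1 CPM in neuron.1. *Cdh9* reached 180 CPM in neuron.6, of whose 125 nuclei 120 were WT, and 97.8 CPM in neuron.1. *Cdh18* and *Cdh12* therefore differed little between their highest clusters, and *Cdh9* more.

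*Cdh8*, known for marking subsets of projection neurons, was highest in neuron.2, at 803 CPM [780, 827] against 345 CPM in neuron.1, at 775.5 (WT) and 854 CPM (HET). *Cdh7* peaked in neuron.4 at 253 CPM in WT and 323 CPM in HET, with 212 CPM in neuron.5 in both libraries together. *Cdh6* was at 185 CPM in neuron.8, the cluster with the cholinergic markers *Chat* at 158 CPM and *Slc5a7* at 243 CPM. That cluster had 44 WT and 9 HET nuclei, with *Cdh6* at 202 CPM and 92.1 CPM, and in HET the highest *Cdh6* cluster was neuron.3. *Cdh22* did not stand apart, at 83.5 CPM in neuron.2 and 81.8 CPM in neuron.8, and neither did *Cdh24*, at 8.07 CPM in neuron.2.

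Other type II genes had their highest levels in non-neuronal clusters. *Cdh20* was at 1395 CPM in astro (1321 CPM in WT, 1456 CPM in HET) and 1178 CPM in oligo, and *Cdh10* at 795 CPM in astro and 742 CPM in oligo. *Cdh10* was shared with neurons, at 346 CPM in neuron.6 and 293 CPM in neuron.1, which held 26018 of its 44489 UMIs. *Cdh19*, known from myelinating glia and their precursors, was at 479.5 CPM in oligo and 192 CPM in astro, and at 3.64 CPM over the neuronal clusters. Its gene spans chr1:110888326-110977584 (GRCm38). *Cdh5* (VE-cadherin, the junction protein of endothelium) was at 219 CPM [191, 250] in endo, 240 (WT) and 177 CPM (HET), and at 0.551 CPM over the neuronal clusters. *Cdh5* was second highest in fibro, at 97.9 CPM, a cluster whose markers also included the endothelial *Flt1* at 77.4 CPM, and its gene spans chr8:104101625-104144511. *Cdh11* (OB-cadherin, of mesenchyme) was at 302 CPM in fibro, 213 (WT) and 399 CPM (HET), and then at 212 CPM in neuron.7.

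Of the other single cadherins, *Cdh13* (T-cadherin, which lacks a cytoplasmic tail and is held by a lipid anchor) was highest in neuron.7, the cluster with the serotonergic markers *Tph2* at 1298 CPM and *Slc6a4* at 709 CPM. It stood there at 575 (WT) and 562 CPM (HET), and at 341 CPM in neuron.1 overall. *Cdh23* and *Pcdh15*, which together form the tip links of hair cells, did not share a pattern. *Cdh23* was at 241 CPM in neuron.4, 237 (WT) and 243 CPM (HET), and 44.8 CPM in the next cluster. *Pcdh15* was broad over neurons, at 1239 CPM in neuron.1 and 1222 CPM in neuron.2, and its highest subcluster was number 32, with the markers of oligodendrocyte precursors, at 3055 CPM from 332 UMIs in 50 nuclei. *Cdhr1* (a photoreceptor cadherin) was at 381 CPM in neuron.8 and 65.5 CPM in neuron.4. The 7-domain genes *Cdh16* (55 UMIs) and *Cdh17*, with *Cdh26* and *Cdhr2* (59 UMIs), had at most 4 UMIs in any highest cluster and were not placed.

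The delta-1 protocadherins held the most UMIs, 1040923 over 4 genes. *Pcdh9* alone had 823324 UMIs and was at 17365 CPM in oligo, 16282 CPM in WT and 18167 CPM in HET. Its next cluster was micro at 6755 CPM, with 17032 *Pcdh9* UMIs of 2521523. Of these, subcluster 18 with its neuronal markers had 8198 *Pcdh9* UMIs of 1520858. Subcluster 28, almost all of it in micro, had 7668 *Pcdh9* UMIs of only 595095. The summed oligodendrocyte markers of subcluster 28 were 7404 (WT) and 6929 CPM (HET), and their part in the micro level was not tested. The level of *Pcdh9* in neuron.1 was 4960 CPM. *Pcdh9* was therefore found in most clusters and was highest in oligodendrocytes in each library. Without subclusters 18, 21 and 32, its level in oligo was less than 2 times that of the next cluster. *Pcdh7* was at 2212 CPM in neuron.2 and 1577 CPM in neuron.3, *Pcdh11x* at 385 CPM in neuron.1 and 299 CPM in neuron.6, and *Pcdh1* at 53.8 CPM in endo from 54 UMIs. The genes spanned 877 kb for *Pcdh9*, 415 kb for *Pcdh7* and 620.4 kb for *Pcdh11x*.

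The delta-2 protocadherins, which bind regulators of actin, were spread over neurons, astrocytes and vessels. *Pcdh17* was at 229 CPM [199, 262] in neuron.7 and 198 CPM [186, 210] in neuron.2, with intervals that overlapped. *Pcdh10* was at 196 CPM in astro (158 CPM in WT, 226 CPM in HET) and 111 CPM in neuron.1. *Pcdh19*, the gene of an epilepsy limited mostly to females, was at 58.9 CPM in neuron.1 and higher in endo, at 96.7 CPM (99.1 CPM in WT, 91.7 CPM in HET). Both *Pcdh19* (189 CPM, 39 UMIs) and *Pcdh18* (131 CPM, 27 UMIs) were highest in subcluster 29 of endo, which had the pericyte markers *Pdgfrb* at 1329 CPM and *Rgs5* at 883 CPM. *Pcdh8* was at 7.71 CPM in neuron.2 and the single gene *Pcdh20* at 4.69 CPM in neuron.6, neither apart from the next cluster.

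The finer subclusters separated neurons further. Of the 28 genes with at least 1000 UMIs, 12 differed at least 10-fold and 21 at least 5-fold between the highest and lowest of 17 neuronal subclusters with at least 50 nuclei, against 19.4% and 34.2% of all genes with at least 1000 UMIs. *Cdh8* ranged from 935 CPM in subcluster 12 to 41.5 CPM in subcluster 13, *Cdh11* from 212 CPM in subcluster 30 to 7.49 CPM in subcluster 27, and *Cdh7* from 303 CPM in subcluster 11 to 26.3 CPM in subcluster 22. *Cdhr1* ranged from 381 CPM in subcluster 31 to 1.50 CPM in subcluster 27. The glial genes *Cdh20* (411 CPM) and *Cdh19* (140.1 CPM) had their highest neuronal level in subcluster 21, where the summed oligodendrocyte markers were 3745 CPM in WT and 4927 CPM in HET, against 448 and 505 CPM in neuron.1. Without subcluster 21 the counts were 11 and 21, and subclusters mostly of 1 library were kept in both. Over all subclusters, the highest stood apart for 17 of 93 genes, in 13 different subclusters, against 16.8% of all genes.

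In 14 neuronal subclusters each library had at least 30 nuclei. The highest subcluster was the same in WT and HET for 14 of the 28 genes, against 38.0% of all genes with at least 1000 UMIs, and the correlation of log2 CPM across the 14 subclusters had a median of 0.80. *Cdh8* was highest in subcluster 12 in each library, at 894 CPM and 1020 CPM. *Pcdh7* was highest in subcluster 14, at 3026 CPM and 3050 CPM, with *Cdh22* at 105 CPM and 108 CPM there. *Cdh23* in subcluster 11 and *Cdh11* in subcluster 30 (203 CPM and 224 CPM) also kept their place. *Pcdh9* had the lowest correlation, 0.30, and moved from subcluster 5 in WT to subcluster 21 in HET, and *Cdh20* also moved to subcluster 21. The points share libraries and depth, so these values describe the data only.

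**Figure D2:**
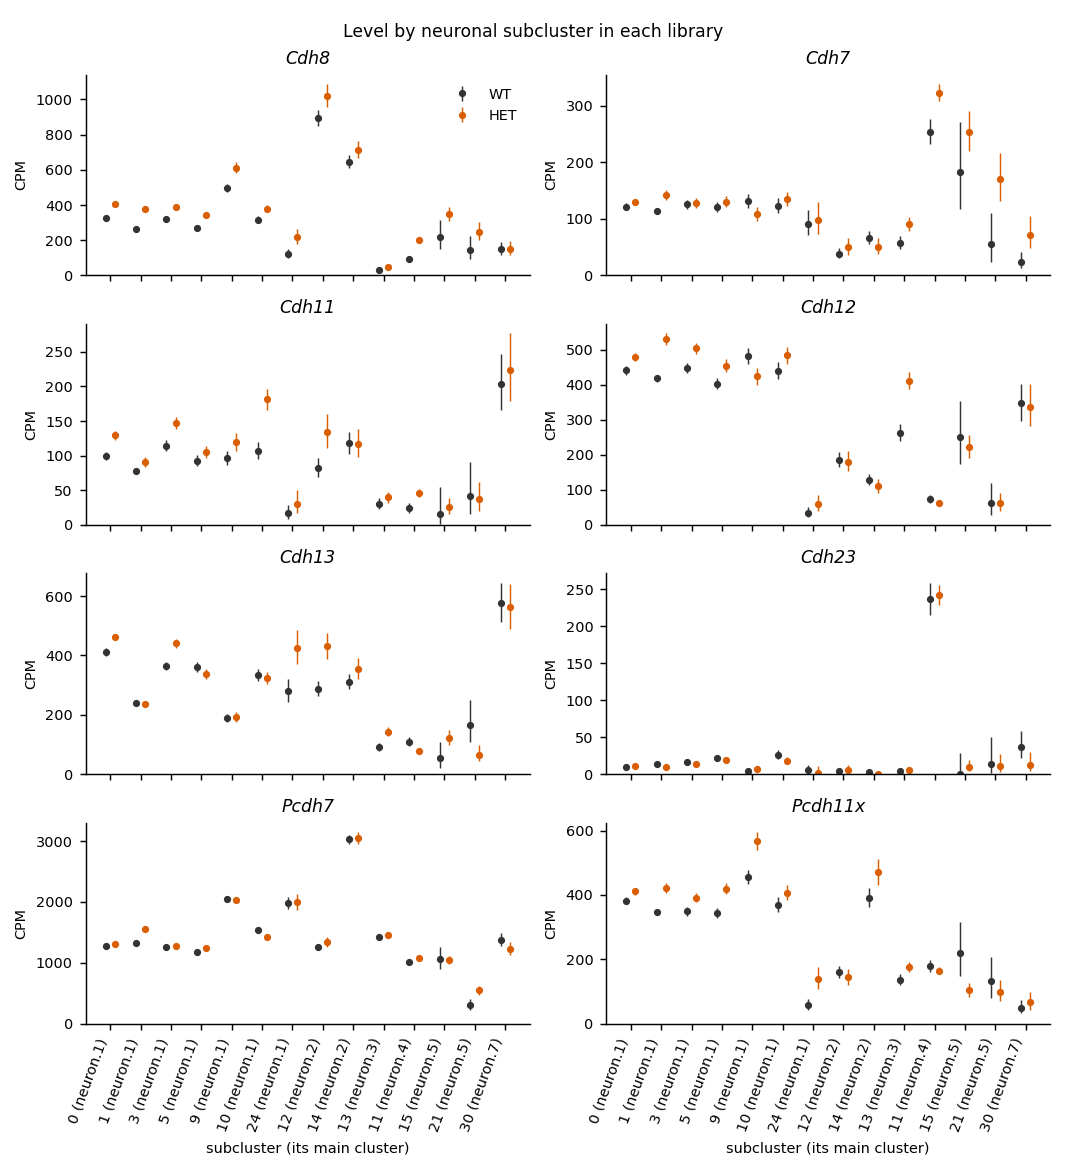
CPM of 8 genes (panels) in 14 neuronal subclusters (x axis, with the main cluster of each) in the WT and HET libraries, with 95% exact Poisson intervals as bars. *Cdh8* peaked in subcluster 12, *Pcdh7* in subcluster 14, *Cdh23* in subcluster 11 and *Cdh13* in subcluster 30 in each library.

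All 93 levels were then used together. For each of 28 subclusters (30 nuclei or more per library), the WT profile, as log2(CPM + 10), was correlated with every HET profile. The most similar HET profile was that of the same subcluster in 23 of 28 and of the same cluster in 26. The subclusters had been made over both libraries with these same genes, so the matches describe them and test nothing. The lead over the next HET profile ran from 0.9970 against 0.9969 in subcluster 3 to 0.922 against 0.816 in subcluster 23. Subclusters 8, 10 and 19 were most like a neighbor in their own cluster, subcluster 20 was most like subcluster 11 of neuron.4, and subcluster 21 was most like subcluster 5 of neuron.1. The count fell to 4 with Spearman's correlation and 11 with a pseudocount of 1 CPM.

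The clustered protocadherins, 55 of the 93 genes, were low, and their sums over each family were compared. Summed alpha genes were at 24.8 CPM in neuronal and 7.23 CPM in non-neuronal clusters, beta genes at 74.3 CPM and 41.6 CPM, and gamma genes at 47.8 CPM and 71.9 CPM. All 13 alpha genes and all 21 beta genes had the higher level in neurons, whereas only 2 of the 21 gamma genes did. Gamma sums were highest in fibro (102 CPM), epend.1 (96.6 CPM), neuron.5 (96.2 CPM) and astro (91.0 CPM), whose intervals overlapped. *Pcdhac2* was the only clustered gene to stand apart from the next cluster, at 15.6 CPM in neuron.7, the cluster with serotonergic markers, from 14 UMIs (15.8 CPM in WT, 15.5 CPM in HET). Its lower bound of 8.54 CPM was nevertheless below the upper bounds of the smaller clusters epend.2 (13.2 CPM) and fibro (9.98 CPM). This gene is known to be needed for the spacing of serotonergic axons.

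**Figure D3:**
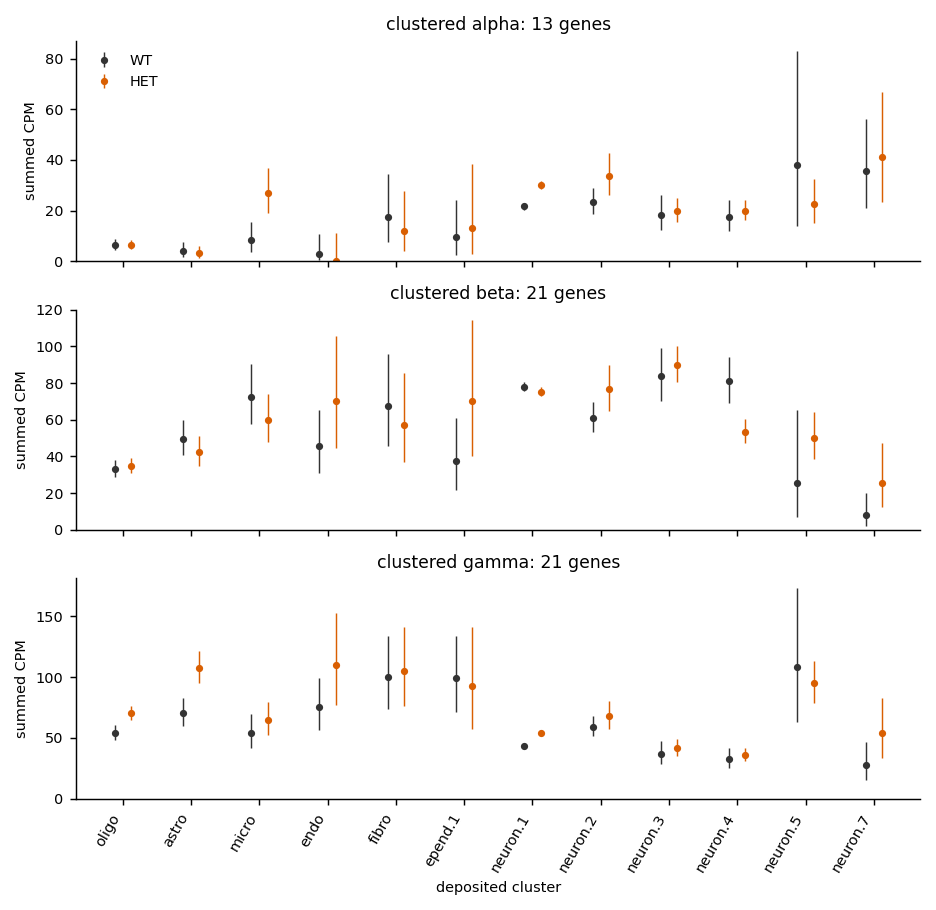
Summed CPM of the alpha, beta and gamma protocadherin families (panels) in the 12 clusters that held 30 nuclei or more from WT and also from HET, for each library, with 95% exact Poisson intervals. Alpha sums were higher in neuronal clusters, and gamma sums in astro were 70.5 (WT) and 108 CPM (HET).

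Single clustered genes were sparse. The alpha genes with the most UMIs were *Pcdha1* (573), *Pcdha5* (494), *Pcdhac2* (432), *Pcdha4* (355) and *Pcdha9* (318). Those of beta were *Pcdhb17* (1307), *Pcdhb14* (1253), *Pcdhb16* (1009), *Pcdhb20* (993) and *Pcdhb19* (742), and those of gamma *Pcdhga12* (1148), *Pcdhgc4* (709), *Pcdhga7* (651), *Pcdhga5* (492) and *Pcdhga3* (479). In 32 of the 93 genes, all alpha or gamma, every coding transcript shares its 3′ end with other genes, because these families splice variable exons to common last exons. A 3′ library then reads mainly shared sequence, and the split of UMIs between these genes is uncertain. The beta genes have single exons and mostly their own 3′ ends, and 58 of the 93 genes shared none.

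Between genotypes, over all nuclei, the median log2 ratio of CPM (HET over WT) of the 93 genes was 0.20, with 62 genes higher and 31 lower in HET, against a median of −0.09 over 21997 genes. Of the 93 genes, 24 were at least 1.5-fold higher, against 10.9% of all genes, and 8 at least 1.5-fold lower, against 15.3%. Among the 66 genes with at least 200 UMIs, 11 were at least 1.5-fold higher and 8 lower, against 6.29% and 12.7% of all genes with that many UMIs, and the median was 0.09 against −0.10. Gene length moved with the ratio: over 10 equal groups of genes by length, the median log2 ratio of all genes went from −0.35 in the shortest to 0.11 in the longest, which held 38 of the 93 genes. A count taken against genes of like length is given in the last section, and the part of length in the difference was not tested.

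By subfamily, the median log2 ratio was 0.20 for type I, 0.12 for type II, 0.06 for delta-1, −0.01 for delta-2, 0.37 for alpha, 0.12 for beta and 0.62 for gamma genes. The median length was 217 kb for alpha, 3.72 kb for beta and 116 kb for gamma genes. Over all genes the median ratio was −0.29 at lengths of 3.27 to 6.11 kb and 0.11 in the longest group. The subfamily medians were not set against genes of like length. In gamma, 11 of 21 genes were at least 1.5-fold higher in HET and 2 were at least 1.5-fold lower, *Pcdhgc4* at −0.63 and *Pcdhgc5* at −0.64. The largest log2 ratios among genes with at least 200 UMIs were those of *Pcdhga10* (1.34, 80 and 191 UMIs in WT and HET), *Pcdhga8* (1.13, 99 and 204 UMIs), *Cdh19* (1.06), *Pcdhga7* (0.96, 230 and 421 UMIs) and *Pcdhgb6* (0.95, 72 and 131 UMIs). As 3′ ends are shared, the gamma sum is firmer than these single values. The gamma sum was 0.29 [0.22, 0.37] higher on the log2 scale in HET over neurons, and went from 43.4 (WT) to 54.3 CPM (HET) in neuron.1, from 54.1 to 70.1 CPM in oligo and from 70.5 to 108 CPM in astro. The alpha sum was 0.40 [0.29, 0.51] higher over neurons, and the beta sum differed by −0.04. In neuron.4 the beta sum was lower in HET, at 81.0 (WT) and 53.5 CPM (HET).

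**Figure D4:**
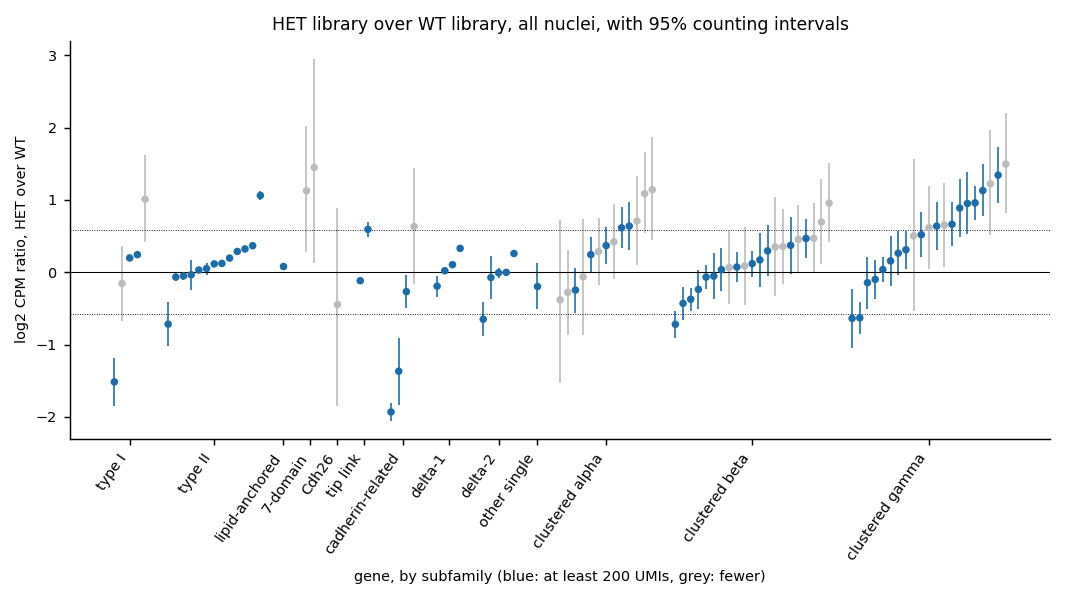
Log2 ratio of CPM, HET over WT, of each of the 93 genes over all nuclei, grouped by subfamily and sorted within each, with 95% exact conditional binomial intervals (blue, at least 200 UMIs; grey, fewer). Dotted lines mark 1.5-fold. The lowest point is *Cdhr1* at −1.93 and gamma genes reach above 1.

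*Cdhr1* had the lowest ratio of the 93 genes. It had 2941 UMIs in WT and 725 UMIs in HET, a log2 ratio of −1.93 [−2.05, −1.82]. It was lower in HET in each of the 9 clusters with at least 20 of its UMIs, although in neuron.7 (15 and 10 UMIs), astro and micro the interval included 0. The level was 37.5 CPM in WT and 9.52 CPM in HET in neuron.1 (log2 ratio −1.98), 154 CPM and 30.7 CPM in neuron.4 (−2.32), and 20.6 CPM and 2.82 CPM in neuron.3 (−2.87). In neuron.8 it was 420 CPM in WT and 167 CPM in HET, the latter from 40 UMIs in 9 nuclei. In subclusters 0, 1 and 11 the log2 ratios were −2.01, −1.94 and −2.32. The gene spans chr14:37077857-37098347 (GRCm38). Without clusters mostly of 1 library the ratio was −1.77.

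**Figure D5:**
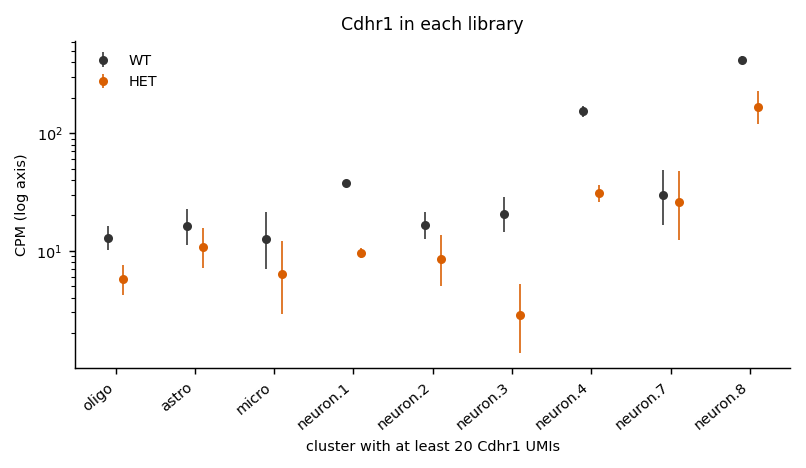
CPM of *Cdhr1* on a log axis in the 9 clusters with at least 20 of its UMIs, in WT and HET, with 95% exact Poisson intervals. The HET point lies below the WT point in each cluster, from 37.5 against 9.52 CPM in neuron.1 to 29.5 against 25.8 CPM in neuron.7, where the intervals overlap.

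Several other low ratios belonged to genes whose highest cluster held more WT than HET nuclei. *Cdh3* had 304 UMIs in WT and 100 in HET (log2 ratio −1.52), and 71 of the WT UMIs were in epend.2. The low ratio of *Cdh3* was not limited to that cluster. In neuron.1, with 5032 WT and 4079 HET nuclei, it had 198 UMIs in WT and 86 in HET. *Cdhr4* had 151 and 55 UMIs (−1.37), while epend.1 held 129 WT and 45 HET nuclei. *Cdh5* had 250 and 143 UMIs (−0.72), while endo held 222 and 122 nuclei. With each cluster given the same weight in both libraries, *Cdhr4* was at −0.73 and *Cdh5* at −0.24. *Pcdhb20*, with 632 and 361 UMIs, was at −0.72 [−0.91, −0.53].

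*Cdh19* had 2768 UMIs in WT and 5440 in HET, a log2 ratio of 1.06 [1.00, 1.13], and oligo held 1767 and 2382 nuclei. Within oligo its level was 369 CPM in WT and 561 CPM in HET (log2 ratio 0.60), and the summed oligodendrocyte markers there were 9217 and 10767 CPM. In neuron.1 it was at 1.80 and 3.67 CPM, beside 448 and 505 CPM of those markers. With equal cluster weights the ratio over all nuclei was 0.59. *Cdh23*, at 0.59 over all nuclei, was at like levels within neuron.4 (237 and 243 CPM), of which 114 nuclei were WT and 339 HET. *Pcdh9* was at 0.33 and *Cdh20* at 0.37 over all nuclei. *Pcdh9* differed most in subcluster 21 (1789 CPM in WT, 8998 CPM in HET) and subcluster 23 (810.2 CPM in WT, 6855 CPM in HET). The summed oligodendrocyte markers were 3745 and 4927 CPM in subcluster 21 and 1135 and 1036 CPM in subcluster 23, and their part in these differences was not tested.

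Within clusters the median log2 ratio of the members with at least 20 UMIs there was above 0 in most clusters: 0.12 in astro, 0.55 in endo, 0.53 in fibro, 0.20 in neuron.1, 0.25 in oligo, 0.20 in epend.1, 0.09 in neuron.2, 0.13 in neuron.3 and 0.35 in neuron.5. It was near 0 in micro (0.02) and neuron.7 (0.04), and −0.06 in neuron.4. The median over all genes was −0.07 in micro, −0.09 in neuron.7 and −0.06 in neuron.4. In the other clusters it lay between −0.16 (epend.1) and −0.004 (neuron.5). In astro 7 of 36 genes were at least 1.5-fold higher and 4 lower, against 8.38% and 18.4% of all genes. In endo 10 of 20 genes were higher and 0 lower, against 19.6% and 26.8%, and in fibro 10 of 21 were higher and 1 lower, against 13.2% and 17.5%. In neuron.1 22 of 90 genes were higher and 5 lower, against 10.0% and 14.2%, and in oligo 12 of 55 were higher and 7 lower, against 10.5% and 15.2%. In endo the higher genes included *Cdh2*, at 203 (WT) and 373 CPM (HET), and *Cdh11*, at 32.5 CPM and 82.5 CPM, from 22 and 27 UMIs. They also included *Cdh18* and *Cdh12*, both highest in neuronal clusters. *Cdh18* was at 68.1 (WT) and 272 CPM (HET), and *Cdh12* at 19.2 and 113 CPM. The summed neuronal markers (*Rbfox3*, *Snap25* and *Syt1*) were 281 and 593 CPM in endo and 464 and 490 CPM in fibro, and the oligodendrocyte markers 1965 and 2332 CPM in endo. Their part in the result was not tested. Among endo nuclei whose second label named the same type, the median was 0.058 over 11 members.

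The partners of these proteins were counted by the same rule, which 10.9% (higher) and 15.3% (lower) of all genes passed. None of 8 catenin genes passed 1.5-fold, with a median log2 ratio of 0.13. *Ctnna2* and *Ctnna3*, the alpha-catenins of neurons and heart that tie cadherins to actin, were at 0.16 and 0.30, and *Ctnnd2* (delta-catenin) was at 0.10. None of 11 regulators of the clustered protocadherins passed it, with a median of −0.05, and the cohesin genes *Stag1*, *Nipbl* and *Wapl* were at 0.10, −0.05 and 0.10. None of 16 processing and cytoplasmic partners passed it, with a median of 0.01, where the focal adhesion kinase *Ptk2*, the plakophilin *Pkp4* and the actin regulator *Nckap1* had the most UMIs (log2 ratios 0.20, 0.22 and 0.32). Of 16 larger members of the cadherin superfamily, 1 was at least 1.5-fold higher, *Fat2* at 2.75, and 2 lower, *Dsg2* at −1.14 and *Dsc2* at −0.89. *Fat2*, an atypical cadherin of cerebellar granule cells, was highest in neuron.5 at 183 CPM, and neuron.5 held 42 WT and 332 HET nuclei. The 3 of that list with the most UMIs, *Fat3*, *Clstn2* and *Clstn1*, were at 0.11, 0.04 and −0.02.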

How the data were processed

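Raw counts of UMIs per gene and nucleus were used as the authors deposited them, from 10x 3′ v3.1 libraries aligned with Cell Ranger to mm10 and filtered in Seurat 4.1 (at least 1000 genes per nucleus, doublets removed). The Cell Ranger version, strand use and the counting of introns are not given in the sources used here. Cluster and subcluster labels, a second label and the doublet score were also the authors' deposited values.

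Counts were summed over nuclei per library and cluster and given as CPM with 95% exact Poisson intervals; ratios have exact conditional binomial intervals. No test was made. Ratios were computed for all genes. The code was tested on simulated data. Gene positions are from a GENCODE annotation of GRCm38, which placed 92 of the 93 genes; promoters are from RefSeq. A 3′ end counted as shared where the last 500 exonic bases of a coding transcript overlapped an exon of another Cdh or Pcdh gene on the same strand.

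Genes named are the 5 with the most UMIs of each subfamily, those with at least 100 UMIs in their highest cluster and 2 times the next, and the 5 largest and 5 smallest ratios among members with at least 200 UMIs; of the other lists, the 3 with the most UMIs. Other genes were named after their values were seen. The members and lists were chosen with earlier results of these data known. Alternatives were equal cluster weights, nuclei with at least 2000 UMIs, nuclei without the 5% highest doublet scores, the second label, each library alone, other scalings, minimums and correlations, and, chosen after seeing the data, runs without subclusters mostly of 1 library or of mixed markers. The tools were matplotlib 3.10.9, scipy 1.17.1, pandas 2.3.3 and numpy 2.4.6 under Python 3.11.15.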

Additional observations from a re-analysis of the deposited data

Results flagged for a closer look

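*Cdh20*, a glial type II cadherin, moved in opposite directions between the libraries in different clusters. In neuron.5 its log2 ratio of CPM, HET over WT, was 1.82 (8 UMIs in WT, 229 UMIs in HET), higher in HET. In epend.1 it was −1.06 (82 and 21 UMIs), lower in HET. Of these UMIs, 59 in WT and 5 in HET were in subcluster 32, which had the markers of oligodendrocyte precursors. That subcluster held 47 WT and 3 HET nuclei. In subcluster 23, with 82 WT and 42 HET nuclei, *Cdh20* had 23 and 16 UMIs. The part of subcluster 32 in the epend.1 ratio was not tested. Both groups were picked out because their intervals lay on opposite sides of 0, and the difference between them was not tested. The summed oligodendrocyte markers were 1335 CPM in WT and 2270 CPM in HET in neuron.5, and 1280 and 1061 CPM in epend.1.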

How the results depend on the processing

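With 1 library per genotype, counting error is the only error given, and rare members cannot be placed at this depth. The median log2 ratio of 0.20 became 0.23 without the 5% highest doublet scores, 0.16 without clusters and 0.15 without subclusters mostly of 1 library (the latter chosen after seeing the data), 0.30 when scaled to the median of genes with at least 200 UMIs, and 0.093 for members with at least 200 UMIs. With that minimum, the count past 1.5-fold went from 32 to 19 and the higher ones from 24 to 11. The lower ones went from 8 to 5 when scaled and to 4 against genes of like length. Within clusters, scaling gave 0.16 in astro, −0.014 in micro and −0.041 in neuron.7, the last 2 changing sign. Nuclei whose second label named the same type gave 0.16 in astro, 0.058 in endo (11 members) and 0.71 in micro (5 members), and were too few in epend.1 and fibro. In HET alone, 3 genes (*Pcdh9*, *Cdh19* and *Cdh23*) in place of 9 had at least 100 UMIs in the highest cluster and 2 times the next. Profiles matched in 4 subclusters by Spearman's correlation and in 11 with a pseudocount of 1 CPM, in place of 23. *Cdhr1* was −1.77 and *Cdh3* −1.17 without clusters mostly of 1 library, *Cdh5* was −1.10 and *Cdhr4* −0.66 without the 5% highest doublet scores, and *Cdh19* was between 0.59 and 1.17. The other 64 of 82 values of comparisons, and 56 of 70 of named genes, moved by less than the counting interval or, for counts, stayed within 1.5 times. The causes were not tested. No paired analysis was possible because the shared replicate number 1 marks 1 library per genotype and no test was made.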
